A study of Mus musculus with 8 samples.

Results

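The mouse collagen genes were followed across the cell types of the distal colonic mucosa by single-cell RNA sequencing. Every gene of the count matrix whose symbol had the form Col, number, a, number was taken as a member, which gave 44 of 31053 genes. Of these, 11 encode chains of fibrillar collagens, 8 encode collagens of basement membranes (types IV, XV and XVIII) and 25 encode chains of other types. The rule used gene names only and no measured value. The study profiled 8 mice aged 8 weeks, in groups of 4. The mice labelled KO had the source Vil1::Cre;Spry2-f/f. They carried floxed alleles of Sprouty2 (Spry2, an inhibitor of receptor tyrosine kinase signalling) and a Cre driven by Vil1, the villin gene of intestinal epithelial cells. Their littermates labelled WT carried the same floxed alleles and no Cre, so neither group was free of the floxed allele. The colon wall was stripped of its outer muscle and nerve layers and digested, and dead cells were removed, before droplet capture and sequencing of transcript 3′ ends.

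A collagen molecule is a triple helix of alpha chains, each encoded by its own Col gene, and most collagens combine chains of different genes. Fibrillar collagens (types I, III and V among them) form the cable-like fibrils of connective tissue. Type IV collagen forms the sheet-like network of basement membranes under epithelium and around vessels, where types XV and XVIII carry glycosaminoglycan chains. Type VI forms beaded microfibrils, types XII, XIV and XVI bind to fibril surfaces, type VIII forms short-chain networks, and types XIII and XXIII span the cell membrane. In the gut wall, fibroblasts of the lamina propria are known as the main source of collagen.

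The promoters of 3 collagens are shown because these genes mark the main contrasts described below. Col3a1 was the most abundant collagen transcript, Col6a3 was higher in fibroblasts that the authors named CD90-positive, and Col15a1 was higher in those they named after Igfbp3. Each run holds the 250 bases before the RefSeq transcription start on build GRCm38.p6, 5′ to 3′ in the gene's direction. The TATA box was searched as TATAAA and the GC box of many promoters as GGGCGG. The CCAAT box was searched by those letters. All were searched on both strands and are in capitals where found. Col3a1 lies on chromosome 1 (chr1:45311288-45311537, + strand), Col6a3 on the same chromosome (chr1:90843972-90844221, − strand) and Col15a1 on chromosome 4 (chr4:47207762-47208011, + strand).
Col3a1: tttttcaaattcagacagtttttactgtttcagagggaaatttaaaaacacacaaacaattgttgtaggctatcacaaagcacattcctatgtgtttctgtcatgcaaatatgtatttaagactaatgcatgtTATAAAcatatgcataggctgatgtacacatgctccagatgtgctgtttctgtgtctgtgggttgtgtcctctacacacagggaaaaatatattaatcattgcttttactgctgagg
Col6a3: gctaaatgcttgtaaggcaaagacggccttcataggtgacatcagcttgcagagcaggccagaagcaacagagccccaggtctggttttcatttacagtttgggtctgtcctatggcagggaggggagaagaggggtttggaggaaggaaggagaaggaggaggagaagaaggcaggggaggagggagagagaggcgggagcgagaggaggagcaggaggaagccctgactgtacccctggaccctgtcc
Col15a1: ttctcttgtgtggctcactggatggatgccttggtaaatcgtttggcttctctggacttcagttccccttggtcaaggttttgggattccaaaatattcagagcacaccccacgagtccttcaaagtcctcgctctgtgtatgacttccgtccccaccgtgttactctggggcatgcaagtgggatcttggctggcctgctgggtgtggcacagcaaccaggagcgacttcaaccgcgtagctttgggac
The Col3a1 window held TATAAA, and neither other window held any of the 3 motifs. Promoter windows were found for 35 of the 44 members (38 windows). TATAAA was in 13.2% of these windows against 12.4% of all 32851 windows in the table, CCAAT was in 34.2% against 33.8%, and GGGCGG was in 57.9% against 32.7%. A match here is only a description of the letters. Col4a1 and Col4a2, which encode the main chains of type IV collagen, start 21 bp apart on opposite strands of chromosome 8, and their transcripts overlap over the stretch chr8:11312805-11312826, shown on the + strand, where it holds GGGCGG.
Col4a1 and Col4a2: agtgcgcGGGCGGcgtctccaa
Col4a3 and Col4a4 start 72 bp apart on opposite strands of chromosome 1, and Col4a5 and Col4a6 1309 bp apart on chromosome X. Col3a1 and Col5a2 are neighbours on chromosome 1 with 24614 bp between them.

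The matrix held 53080 cells, 3302 to 10101 per mouse, with 17037906 to 37300028 counted molecules (UMIs, unique molecular identifiers) per mouse. Levels are given as CPM, the UMIs of a gene per 1000000 UMIs of the same cell type in the same mouse. A UMI counts 1 captured molecule whatever the transcript's length, so CPM of different genes were compared as shares of captured molecules. Capture need not be equal between genes. Cell types are the authors' own, cells they named as doublets were left out, and a mouse entered a mean only with at least 20 cells of the type. The types had been defined from these same transcripts, so differences between types are described without a test. Spry2 in epithelial cells measured 10.4, 13.3, 15.7 and 49.3 CPM in KO-labelled mice 2, 3, 6 and 7. In WT-labelled mice 1, 4, 5 and 8 it measured 11.2, 17.6, 27.7 and 37.6 CPM. The Spry2 counts therefore overlapped between the groups and did not show the deletion. The labels do not say which part of Spry2 is deleted, and 3′ counts from outside it would check nothing, so directions below follow the labels only.

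The type names were checked against marker genes. Myofibroblasts named SMA-positive had 10598 ± 1179 CPM of Acta2, which encodes smooth muscle actin (SD, n = 3 mice), and also 2160 CPM of summed pericyte markers over all their cells. Blood vessel endothelium had 1445 ± 318 CPM of Pecam1 (n = 6), and lymphatic endothelium had 4321 ± 470 CPM of Lyve1 (n = 7). Igfbp3 measured 1007 ± 327 CPM in the fibroblasts named CD90-positive Igfbp3 (n = 7, called Igfbp3 fibroblasts below). In the other CD90-positive fibroblasts it was 3 to 84 CPM in 7 mice and 852 CPM in mouse 8 (WT), where only 21 cells carried that name. Thy1, which encodes CD90, was 83.3 ± 30.6 CPM in CD90-positive fibroblasts (n = 8) and 85.7 ± 53.2 CPM in Igfbp3 fibroblasts. Its mean was higher in fibroblasts named MSCs (592 ± 386 CPM, n = 3) and in lymphatic endothelium (567 ± 81.7 CPM). In SMA-positive myofibroblasts it was 65.0 ± 53.4 CPM. The makeup of the fibroblasts differed between mice. Igfbp3 fibroblasts were 3.78% to 13.2% of the fibroblasts in mice 1 to 4, 31.5% to 49.8% in mice 5 to 7, and 87.2% of the 188 fibroblasts of mouse 8. The share of epithelial cells with at least 50% mitochondrial UMIs split the mice likewise, at 53.5% to 79.6% in mice 1 to 4 and 11.1% to 37.2% in mice 5 to 8. Each of these sets held 2 KO-labelled and 2 WT-labelled mice. Values that rest on mouse 8 are given with and without it.

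Collagen transcripts were concentrated in the stroma. Fibroblasts were 12.1% of the cells that were not doublets and held 96.8% of their 769796 collagen UMIs. In the fibroblast class, 2.86% ± 0.293 (SD, n = 8) of all UMIs came from collagen genes. Fibrillar collagens made up 75.0% of collagen UMIs, other collagens 20.2% and basement membrane collagens 4.83%. Col3a1, Col1a2 and Col1a1 alone made up 69.2%.

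Fibrillar collagens summed to 22261 ± 5328 CPM in CD90-positive fibroblasts (n = 8; lowest 10479 in mouse 8, median 24079, highest 27268). They summed to 19884 ± 4921 CPM in the fibroblasts named MSCs (n = 3) and 18663 ± 1798 CPM in Igfbp3 fibroblasts (n = 7). These 3 types overlapped from mouse to mouse. SMA-positive myofibroblasts, at 5885 ± 455 CPM (n = 3), lay below every mouse's value in those types. Blood vessel endothelium (265 ± 220 CPM, n = 6) and lymphatic endothelium (147 ± 88.7 CPM, n = 7) lay lower again and overlapped. Basement membrane collagens had another order. They were highest in blood vessel endothelium (2492 ± 600 CPM) and Igfbp3 fibroblasts (2265 ± 446 CPM), whose mice overlapped, followed by myofibroblasts (1779 ± 196 CPM) and lymphatic endothelium (1607 ± 230 CPM). CD90-positive fibroblasts had 933 ± 400 CPM, with 702 to 952 CPM in 7 mice and 1905 CPM in mouse 8, and the MSC-named fibroblasts had 855 ± 64.6 CPM. The other collagens were highest in CD90-positive fibroblasts (6367 ± 804 CPM), then Igfbp3 fibroblasts (4035 ± 421 CPM), MSC-named fibroblasts (2936 ± 484 CPM) and myofibroblasts (1679 ± 146 CPM). Because fibroblasts were more numerous than endothelial cells, they still held 82.1% of basement membrane collagen UMIs, against 5.55% in blood vessel endothelium and 5.32% in lymphatic endothelium.

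**Figure D1:**
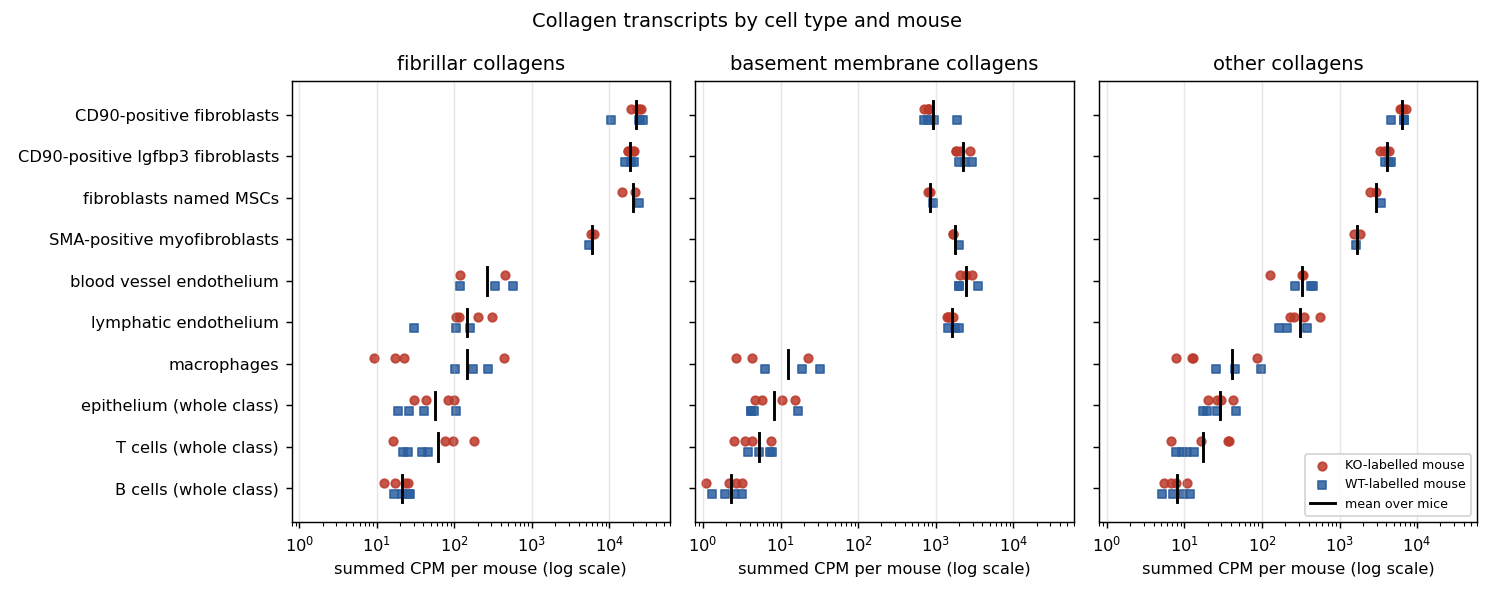
Summed CPM of the fibrillar, basement membrane and other collagens (log scale) by cell type, with 1 point per mouse and a bar at the mean over mice. Fibrillar and other collagens fall from fibroblasts to endothelium, while basement membrane collagens of blood vessel endothelium overlap with those of Igfbp3 fibroblasts.

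Among the fibrillar chains, Col3a1 (ENSMUSG00000026043), the only chain of type III collagen, led in most fibroblast types. In CD90-positive fibroblasts it ranged from 4914 CPM in mouse 8 over a median of 11886 to 14205 CPM, and without mouse 8 the lowest was 9036 CPM. In Igfbp3 fibroblasts it ranged from 7510 to 11564 CPM (median 10312). The type I chains behaved differently between types. Col1a2 measured 5366 ± 1264 CPM and Col1a1 4091 ± 1009 CPM in CD90-positive fibroblasts, and 4160 ± 321 and 2934 ± 229 CPM in Igfbp3 fibroblasts. In the MSC-named fibroblasts, Col1a2 was 7374, 7392 and 4768 CPM and Col1a1 was 5630, 6996 and 3306 CPM in mice 2, 5 and 7, beside 7001, 8165 and 5175 CPM of Col3a1. The ratio of Col3a1 to Col1a1 UMIs was thus 1.33 ± 0.21 in MSC-named fibroblasts (n = 3) against 2.72 ± 0.19 in CD90-positive (n = 8), 3.36 ± 0.37 in Igfbp3 fibroblasts (n = 7) and 5.59 ± 0.47 in myofibroblasts (n = 3), with no overlap between the first and any of the others.

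Type V chains, which are built into type I fibrils and regulate their diameter, were lower and more even. Col5a2 measured 776 ± 127 CPM in CD90-positive and 812 ± 101 CPM in Igfbp3 fibroblasts, and Col5a1 measured 654 ± 53.1 and 626 ± 105 CPM. Col5a3 was 198 ± 61.3 and 180 ± 28.7 CPM in these types, where the 2 ranges overlapped. In myofibroblasts Col5a1 lay further below Col5a2 (128 ± 39.2 against 370 ± 41.9 CPM) than it did in fibroblasts. Col27a1, a fibrillar chain known from cartilage, was 80.6 ± 31.8 CPM in Igfbp3 fibroblasts and 21.5 ± 13.3 CPM in CD90-positive fibroblasts.

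Basement membrane chains were high in endothelium as well as in fibroblasts. Col4a1 reached 1135 ± 366 CPM in blood vessel endothelium (n = 6, lowest 810, median 1056, highest 1723), 867 ± 147 CPM in myofibroblasts and 708 ± 170 CPM in Igfbp3 fibroblasts. Lymphatic endothelium had 623 ± 101 CPM and CD90-positive fibroblasts 388 ± 54.9 CPM of it. Col4a2 followed the same order, with 841 ± 271 CPM in blood vessel endothelium, 549 ± 117 CPM in myofibroblasts, 407 ± 95.9 CPM in Igfbp3 fibroblasts, 291 ± 52.5 CPM in lymphatic endothelium and 232 ± 22.8 CPM in CD90-positive fibroblasts. For both genes, neighbouring types in this order overlapped over mice, except that every lymphatic value of Col4a1 (510 to 804 CPM) lay above every CD90-positive value (290 to 452 CPM). Col4a5 and Col4a6, whose chains assemble together in some basement membranes, were 79.5 ± 21.4 and 28.2 ± 7.97 CPM in Igfbp3 fibroblasts and were not detected in blood vessel endothelium, where a count of 0 allows up to 3.93 CPM over all its cells (3 counts, for counting error only).

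The heparan and chondroitin sulphate collagens split between vessel types. Col18a1, whose C-terminal fragment is endostatin, was 656 ± 140 CPM in lymphatic endothelium (463 to 835 CPM over 7 mice) and 42.9 ± 17.8 CPM in blood vessel endothelium (17.6 to 62.3 CPM over 6 mice). Col15a1 showed the opposite, with 452 ± 144 CPM in blood vessel endothelium and 6.02 ± 11.6 CPM in lymphatic endothelium. The endothelial types did not overlap for either gene. Among fibroblast types with at least 3 mice, Col15a1 was highest in Igfbp3 fibroblasts at 827 ± 184 CPM. The membrane collagens were similarly divided: Col13a1 was 214 ± 87.8 CPM in blood vessel endothelium against 2.52 ± 5.00 CPM in lymphatic endothelium, and Col23a1 was 256 ± 120 CPM in lymphatic against 4.45 ± 6.86 CPM in blood vessel endothelium. Lymphatic endothelium held 52.1% of all Col23a1 UMIs, and blood vessel endothelium held 68.9% of all Col13a1 UMIs.

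Of the remaining types, the 3 main chains of type VI collagen did not follow each other. Col6a1 and Col6a2 were 1289 ± 120 and 943 ± 185 CPM in CD90-positive fibroblasts and 1463 ± 141 and 1045 ± 167 CPM in Igfbp3 fibroblasts. Col6a3 was 1339 ± 479 CPM in CD90-positive fibroblasts (1183 to 1836 CPM in 7 mice, 301 CPM in mouse 8) and 289 ± 108 CPM in Igfbp3 fibroblasts (174 to 427 CPM). The ratio of Col6a3 to Col6a1 UMIs was 1.13 ± 0.16 in CD90-positive fibroblasts over 7 mice, mouse 8 having too few Col6a3 UMIs. It was 0.195 ± 0.064 in Igfbp3 fibroblasts (0.123 to 0.286), with no overlap among these mice. The CD90-positive cells of mouse 8 had 301 CPM of Col6a3 beside 1103 CPM of Col6a1. That mouse would therefore lie within the Igfbp3 range. Col6a4, a minor chain of the same family, reached 50.3 ± 27.2 CPM in myofibroblasts and was 0.268 ± 0.38 CPM in CD90-positive fibroblasts. The fibril-associated collagens also differed by type. Col14a1 was 2020 ± 517 CPM in CD90-positive fibroblasts against 540 ± 105 CPM in Igfbp3 fibroblasts, Col12a1 was 557 ± 214 CPM in MSC-named and 414 ± 140 CPM in Igfbp3 fibroblasts, and Col16a1 was 191 ± 50.2 CPM in MSC-named and 133 ± 12.9 CPM in CD90-positive fibroblasts. Col8a1, of the short-chain type VIII, was 498 ± 177 CPM in CD90-positive and 106 ± 43.4 CPM in Igfbp3 fibroblasts.

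**Figure D2:**
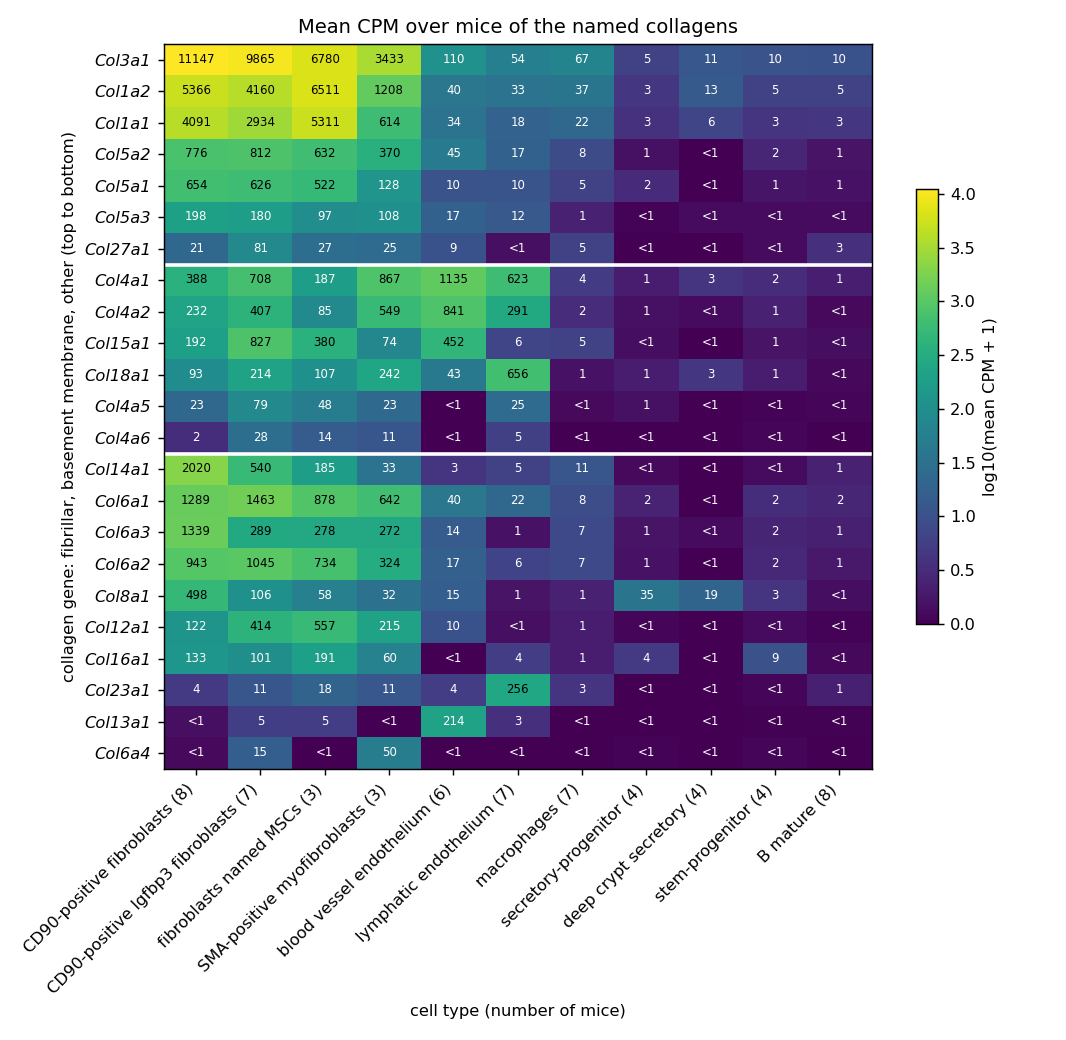
Mean CPM over mice of the 23 collagens that reached 50 CPM in at least 1 type, by cell type, with colour on a log10(mean CPM + 1) scale and the number of mice in brackets. Col4a1, Col4a2 and Col13a1 are highest in blood vessel endothelium, Col18a1 and Col23a1 in lymphatic endothelium among the types shown, and Col8a1 stands out in secretory-progenitor cells.

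The 2 main fibroblast types were then compared within each mouse, which holds the animal and its library constant. Mouse 1 had 15 Igfbp3 fibroblasts and dropped out, which left 7 mice. The 23 collagens that reached 50 CPM in some type were compared. Over mice 2 to 7, 12 collagens were higher in Igfbp3 fibroblasts in 6 of 6 mice, and 7 were higher in CD90-positive fibroblasts in 6 of 6. With mouse 8 included, 11 and 3 collagens were so in 7 of 7 mice. The same count was not made over all genes, so these counts are not read as particular to collagens. The 12 were all 6 named basement membrane chains (Col4a1, Col4a2, Col4a5, Col4a6, Col15a1 and Col18a1) together with Col6a1, Col6a2, Col6a4, Col12a1, Col23a1 and Col27a1. Of these, Col6a1 and Col6a2 differed little, with median log2 ratios of 0.11 and 0.18 over mice 2 to 7. The lowest Col6a1 ratio was 0.003. The 7 were Col1a1, Col1a2, Col5a3, Col6a3, Col8a1, Col14a1 and Col16a1.

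Col15a1 showed one of the widest gaps toward Igfbp3 fibroblasts. Its median log2 ratio was 3.20 over mice 2 to 7 (2.63 to 4.33), a 9.16-fold difference, from 794 ± 177 CPM in Igfbp3 to 81.4 ± 32.7 CPM in CD90-positive fibroblasts (SD, n = 6). Col12a1 had a median log2 ratio of 3.21 (2.39 to 3.99). In mouse 8 both ratios were close to 0, at 0.04 for Col15a1 and 0.05 for Col12a1. For Col18a1 the median was 1.41, for Col4a1 0.72 and for Col4a2 0.72. Toward CD90-positive fibroblasts, Col6a3 had a median log2 ratio of -2.76 (-3.28 to -1.64), a 6.78-fold difference, and in mouse 8 it was 0.36. Col8a1 had a median of -2.15 and Col14a1 of -1.92, and both stayed on the same side of 0 in mouse 8. Col1a1 (-0.59) and Col1a2 (-0.46) differed less, and Col5a2 (-0.03) lay on both sides of 0. The 21 CD90-positive cells of mouse 8 thus had Col15a1 at 1003 CPM, Col12a1 at 702 CPM and Col6a3 at 301 CPM, beside 1029, 728 and 386 CPM in the Igfbp3 fibroblasts of the same mouse. In the Igfbp3 fibroblasts of mice 2 to 7, Col15a1 was 624 to 1126 CPM, Col12a1 326 to 395 CPM and Col6a3 174 to 427 CPM, so only Col12a1 lay outside that range.

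**Figure D3:**
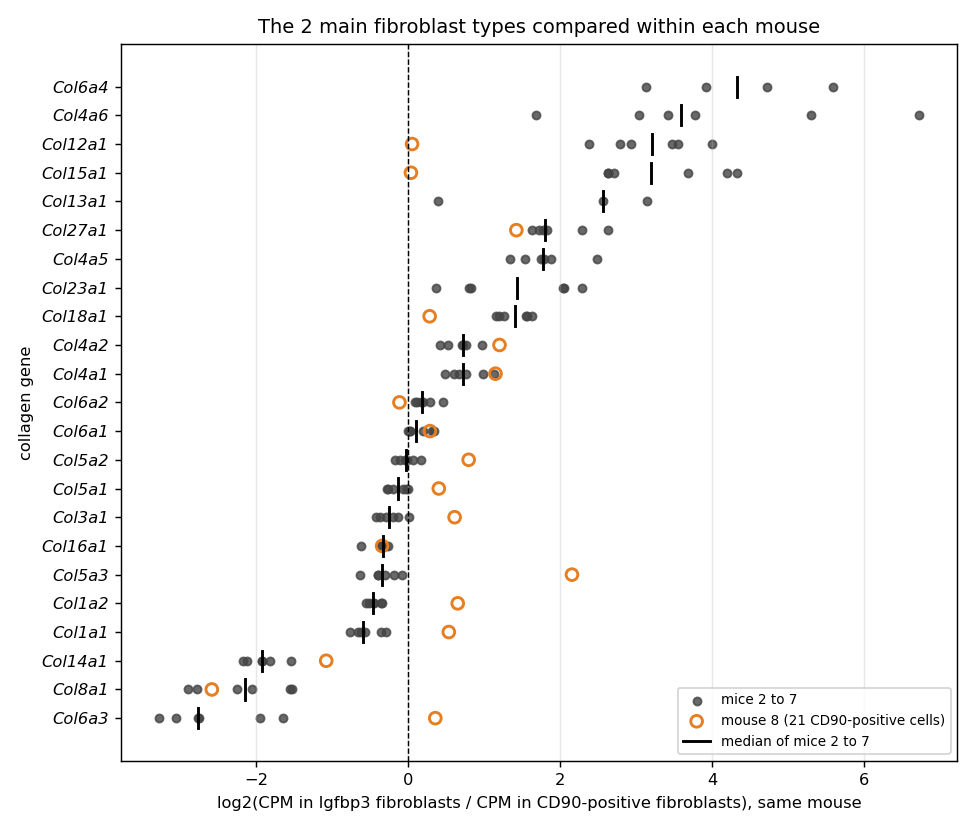
Difference between Igfbp3 and CD90-positive fibroblasts of the same mouse, as log2 of the CPM ratio (horizontal axis), for the 23 named collagens. Filled points are mice 2 to 7, open circles are mouse 8, bars are medians of mice 2 to 7, and mice with 0 UMIs in either type have no point. Basement membrane collagens lie to the right of 0 and Col14a1, Col8a1 and Col6a3 to the left. Mouse 8 lies apart from the rest for several members, among them Col12a1, Col15a1, Col5a3 and Col6a3. Its points rest on 21 CD90-positive cells, and so on few UMIs for lower members such as Col5a3 (50.1 CPM in these cells).

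Chains of types I and IV kept narrower ratios over mice than those of type VI in the fibroblast class, in which all types were summed. The ratio of Col1a1 to Col1a2 UMIs was 0.742 ± 0.035 (SD, n = 8; 0.702 to 0.800). Col4a1 to Col4a2 was 1.71 ± 0.07 (1.59 to 1.79), although the class level of Col4a1 itself ranged from 374 to 966 CPM. Col6a1 to Col6a2 was 1.42 ± 0.208 (1.10 to 1.73), and Col6a3 to Col6a1 was 0.789 ± 0.298 (0.283 to 1.17). In endothelium the Col4a1 to Col4a2 ratio was 1.37 ± 0.24 in blood vessels (n = 6) and 2.10 ± 0.37 in lymphatics (n = 6). These ratios compare captured 3′ ends, and capture of each transcript need not be equal.

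Outside the stroma, collagen levels were low. Over 17 other types with at least 3 mice, mean fibrillar levels ran from 10.4 CPM in the T cells named ILC1-NK to 147 CPM in macrophages. In epithelium that the authors left without a subtype the mean was 134 CPM, and 367 CPM when only cells under 50% mitochondrial UMIs were kept, above the macrophages. This set held all epithelial cells of the KO-labelled mice but only the cells left unnamed in the WT-labelled mice, so its mean mixes unlike sets. Pooled over all its cells, the level was 88.0 CPM. Pooled Col3a1 to Col1a1 ratios were 2.93 in epithelium, 3.04 in T cells, 3.08 in macrophages and 2.46 in B cells, against 2.85 in fibroblasts. Among epithelial types with few UMIs the ratio varied. It was 1.59 in enterocytes (81 Col3a1 UMIs), 1.63 in secretory-progenitor cells (31 UMIs) and 1.33 in deep crypt secretory cells (4 UMIs). In goblet cells it was 3.0 (15 UMIs). RNA released from fibroblasts gives UMIs to any droplet, and its part in these values was not tested. B cells that the authors named as doublets with mesenchyme had 5680 CPM of fibrillar collagens, against 21.1 ± 5.26 CPM in the other B cells (n = 8).

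Col8a1 and Col16a1 stood out in named epithelial types. The authors named epithelial subtypes in the WT-labelled mice only. In their secretory-progenitor cells, Col8a1 measured 40.2, 33.6, 28.4 and 37.5 CPM in mice 1, 4, 5 and 8, while Col3a1 in the same cells was 3.35, 1.77, 2.19 and 13.9 CPM. Col8a1 exceeded Col3a1 in 4 of 4 mice, whereas in fibroblasts there were 37.4 Col8a1 UMIs for every 1000 of Col3a1. The pooled count was 161 Col8a1 UMIs in 409 cells of median depth 8024 UMIs. Mature B cells, which should lack the gene, had 0.431 CPM from 12834 cells of median depth 1893 UMIs. Fibroblast markers summed to 6.56 CPM in secretory-progenitor cells, with 1 of 5 at 0, against 12321 CPM in the fibroblast class, and epithelial markers summed to 4207 CPM. Deep crypt secretory cells, which support the stem cell niche of the colon crypt, had Col8a1 at 13.6, 34.8, 11.0 and 16.6 CPM. These values rest on only 18 UMIs in 441 cells of median depth 1167 UMIs. In stem-progenitor cells Col8a1 was 0.14 to 5.84 CPM, and in enterocytes 0.64 to 1.98 CPM. Col16a1 was highest in stem-progenitor cells, at 11.0, 12.2, 8.97 and 4.27 CPM (198 UMIs in 2378 cells). It was not detected in deep crypt secretory cells, where a count of 0 allows up to 2.90 CPM. In the whole epithelial class of all 8 mice, Col8a1 was 4.66 ± 1.69 CPM and Col16a1 5.38 ± 1.41 CPM.

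**Figure D4:**
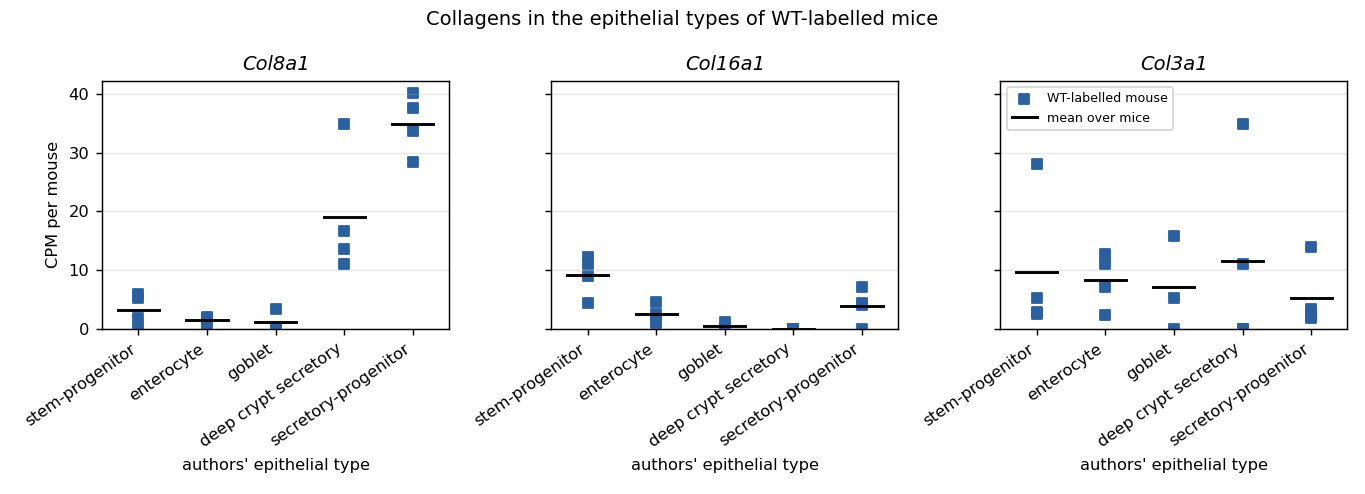
CPM of Col8a1, Col16a1 and Col3a1 in the epithelial types that the authors named in the WT-labelled mice, with 1 square per mouse and a bar at the mean. Col8a1 lies at 28.4 to 40.2 CPM in secretory-progenitor cells, above the Col3a1 level there, and Col16a1 is highest in stem-progenitor cells.

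The other 21 members had a mean under 50 CPM in every type that reached 20 cells in some mouse. Of these, 9 had at least 50 UMIs in the series. Glia never reached 20 cells in a mouse, and over their 42 pooled cells Col20a1 had 106 CPM (11 UMIs), Col28a1 86.7 CPM (9 UMIs) and Col11a1 57.8 CPM (6 UMIs), while Col4a4 and Col9a3 had 38.5 CPM each (4 UMIs). The highest means named next are among the types with at least 20 cells in 3 or more mice. Col6a5 was highest in Igfbp3 fibroblasts (34.0 ± 24.3 CPM), Col4a3 in blood vessel endothelium (18.9 ± 21.1 CPM), Col4a4 (17.8 ± 17.0 CPM) and Col7a1 (20.6 ± 6.23 CPM), the anchoring fibril collagen, in MSC-named fibroblasts, and Col8a2 (9.53 ± 11.4 CPM) in myofibroblasts. Col28a1 was highest in Igfbp3 fibroblasts (9.21 ± 5.77 CPM), Col11a2 in memory T cells (3.86 ± 2.71 CPM) and Col9a3 in blood vessel endothelium (4.33 ± 10.6 CPM). Col20a1 had its highest mean in CD90-positive fibroblasts (7.43 ± 17.3 CPM), while epithelium held 59.3% of its UMIs. That mean includes the 21 cells of mouse 8, where few UMIs give a high CPM. Its SD exceeded it, so the rank is not firm. Epithelium also held 54.6% of the 152 Col7a1 UMIs. The last 12 members, Col11a1 among them, had 2 to 43 UMIs each, and included the cartilage collagens Col2a1, Col9a1, Col9a2 and Col10a1.

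The design asked whether collagen expression differed between KO-labelled and WT-labelled mice. UMIs of each cell set were summed per mouse and tested with edgeR's quasi-likelihood test over all genes that passed its filter on low counts. In the whole fibroblast class (4 against 4 mice), 24 of 44 members passed that filter, and 0 of them passed an adjusted p of 0.05. The same was true of 0% of all 11023 genes tested, and of 0 members by DESeq2. At an unadjusted p under 0.05 there was 1 member, against 1.79% of all genes. Of the 24, 8 had a higher and 16 a lower estimate in KO-labelled mice, where 51.4% of all genes were higher, with a median log2 difference of -0.16 beside 0.01 over all genes.

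The abundant fibrillar chains were close between the groups. Col3a1 in the fibroblast class was 8935, 11230, 10896 and 12124 CPM in KO-labelled mice 2, 3, 6 and 7, and 11177, 12162, 12237 and 7325 CPM in WT-labelled mice 1, 4, 5 and 8. The groups overlapped, and mouse 8 was lowest (log2 KO over WT 0.04 ± 0.19 SE, edgeR adjusted p = 1.00, or -0.12 without mouse 8). With KO-labelled mice given first, Col1a2 averaged 5145 ± 334 and 5175 ± 990 CPM, and Col1a1 3809 ± 262 and 3859 ± 859 CPM. Their log2 differences were 0.02 ± 0.17 and 0.01 ± 0.18, and without mouse 8 they were -0.12 and -0.15.

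The 3 members with the smallest unadjusted p were Col6a5, Col6a2 and Col5a2. Col6a5, a minor chain of type VI, was 6.00, 4.62, 2.85 and 3.30 CPM in KO-labelled mice 2, 3, 6 and 7, and 4.14, 2.60, 23.8 and 63.8 CPM in WT-labelled mice 1, 4, 5 and 8. Its high values were in the WT-labelled mice 5 and 8, and the groups overlapped. Igfbp3 fibroblasts were 49.8% and 87.2% of the fibroblasts in these mice, and 41.5% and 31.5% in KO-labelled mice 6 and 7. The part of this makeup in the Col6a5 values was not tested. The log2 difference was -2.06 ± 0.81, with an edgeR adjusted p of 1.00, and -1.37 without mouse 8. Within Igfbp3 fibroblasts alone it was -1.25 ± 0.61, with KO-labelled mice 2 and 3 at 51.5 and 43.0 CPM, inside the range of the WT-labelled mice (18.4 to 68.4 CPM), and mice 6 and 7 at 6.09 and 5.56 CPM. Col5a2 was 713, 797, 691 and 759 CPM in mice 2, 3, 6 and 7, below its 866, 838, 918 and 934 CPM in mice 1, 4, 5 and 8. It was the 1 member of 24 whose groups did not overlap, which held for 1.81% of all genes tested, and its log2 difference was -0.23 ± 0.12 (edgeR adjusted p = 1.00). Col6a2 differed by -0.28 ± 0.14 (edgeR adjusted p = 1.00). The share of Igfbp3 fibroblasts moves with the class values of Col12a1 and Col15a1, which were 736 and 1002 CPM in mouse 8 and 41.4 and 97.2 CPM in mouse 1, both WT-labelled. With mice 1 to 4 against mice 5 to 8 as a term in the edgeR fit, 0 members passed in the fibroblast class, and the differences of Col6a5, Col6a2 and Col5a2 were -1.66, -0.29 and -0.23.

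**Figure D5:**
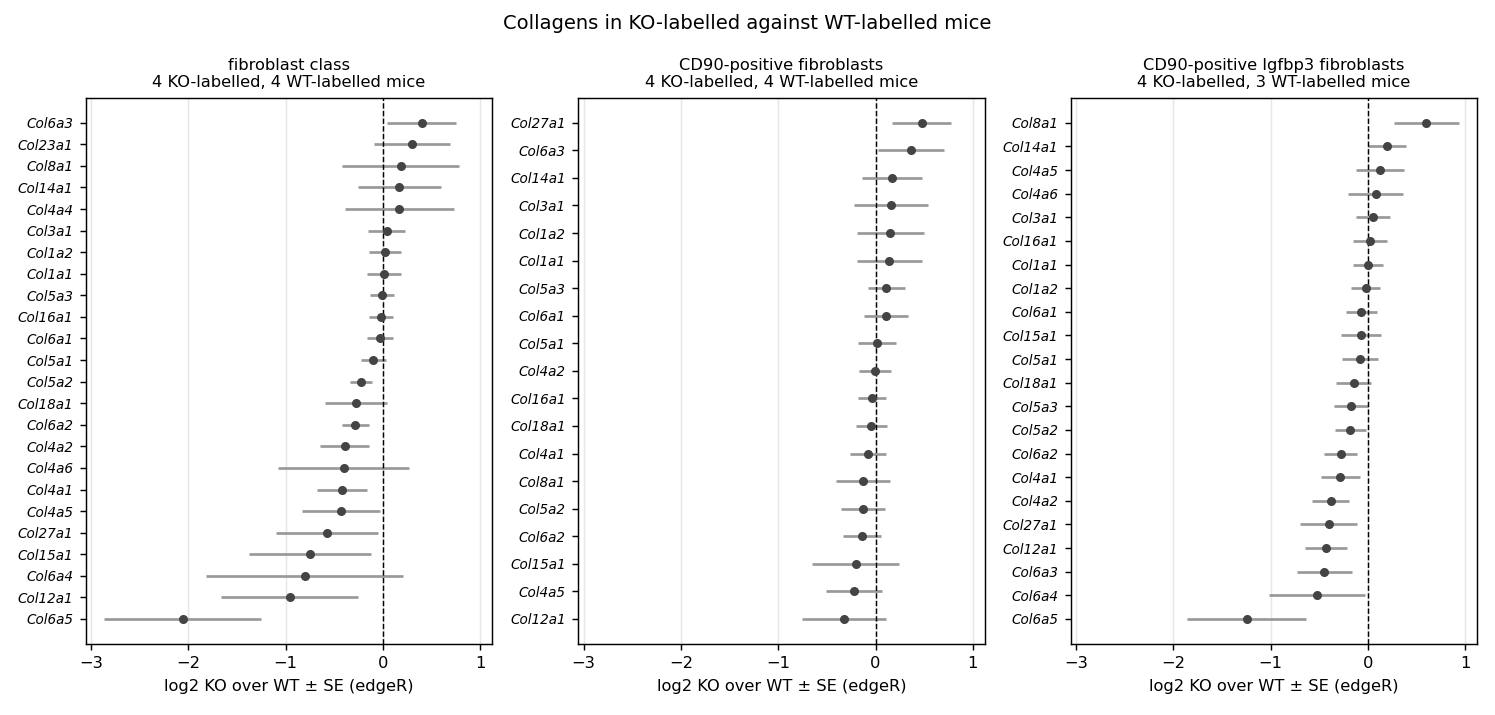
Log2 difference between KO-labelled and WT-labelled mice with its standard error (edgeR) for the collagens that passed the filter in the fibroblast class and its 2 main types. The standard error bars of many members cross 0, and none of the members passed an adjusted p of 0.05.

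Within single fibroblast types the result was the same. In CD90-positive fibroblasts (4 against 4 mice), 0 of 19 members tested passed the adjusted threshold in edgeR, beside 0% of 9843 genes, with 0 members by DESeq2 and 0 at an unadjusted p under 0.05 (2.12% of genes). Of them 9 were higher and 10 lower in KO-labelled mice, where 55% of genes were higher, and for 0 members the groups did not overlap (1.91% of genes). The smallest p belonged to Col27a1 (log2 0.48 ± 0.30), Col6a3 (0.36 ± 0.34) and Col4a5 (-0.22 ± 0.28). Col3a1, Col1a2 and Col1a1 differed by 0.16 ± 0.38, 0.15 ± 0.34 and 0.14 ± 0.34, and by -0.14, -0.13 and -0.13 without mouse 8. In Igfbp3 fibroblasts (4 against 3 mice), 0 of 22 members passed in edgeR, beside 0% of 6537 genes, with 0 by DESeq2 and 0 at an unadjusted p under 0.05 (3.52% of genes). Here 6 were higher and 16 lower, where 50.4% of genes were higher, and for 0 members the groups did not overlap (4.02% of genes), with a median of -0.11 beside 0.00 over all genes. Col4a2 (-0.38 ± 0.19) and Col12a1 (-0.43 ± 0.22) followed Col6a5 in the order of p.

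In blood vessel endothelium (3 against 3 mice), 4 members were tested and 0 passed, beside 0% of 1533 genes, with 0 by DESeq2 and 0 at an unadjusted p under 0.05 (4.7% of genes). Of the 4, 1 was higher (48.7% of genes), and for 0 the groups did not overlap (9.59% of genes). Col13a1 was 176 ± 119 CPM in the KO-labelled group against 252 ± 26.1 CPM (log2 -0.83 ± 0.38), Col15a1 was 395 ± 188 against 509 ± 79.96 CPM, Col4a2 was 895 ± 262 against 788 ± 326 CPM and Col4a1 was 1137 ± 269 against 1133 ± 512 CPM. In lymphatic endothelium (4 against 3 mice), 4 members were tested and 0 passed, beside 0.146% of 3425 genes, with 0 members by DESeq2 (0.0584% of genes) and 0 at an unadjusted p under 0.05 (4.03% of genes). Of the 4, 1 was higher (49.8% of genes), and for 0 the groups did not overlap (5.52% of genes). Col4a1 had the smallest p (log2 -0.29 ± 0.21). Col18a1 was 605 ± 143 and 724 ± 127 CPM (log2 -0.26 ± 0.22), and Col23a1 was 274 ± 138 and 232 ± 113 CPM. The MSC-named fibroblasts and the myofibroblasts each reached 20 cells in 3 mice only and were not tested.

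In the epithelial class, where Cre is driven, 0 of 15 members passed in edgeR, beside 0% of 11723 genes, with 0 by DESeq2 and 0 at an unadjusted p under 0.05 (0.819% of genes). Of the 15, 14 had a higher estimate in KO-labelled mice, where 50.7% of all genes did, with a median log2 of 0.35. The most abundant was Col3a1, at 12.9, 53.8, 21.6 and 37.2 CPM in KO-labelled mice 2, 3, 6 and 7 and 12.2, 17.4, 52.2 and 8.08 CPM in WT-labelled mice 1, 4, 5 and 8, so the groups overlapped, as they did for every member (0.324% of genes did not). The summed fibroblast markers in the same cells were 26.2, 51.0, 28.1 and 33.9 CPM in the KO-labelled and 21.2, 23.1, 46.3 and 7.43 CPM in the WT-labelled mice, and their part in the collagen values was not tested. The share of epithelial cells with at least 50% mitochondrial UMIs also varied, from 13.6% to 79.6% in the KO-labelled and from 11.1% to 78.8% in the WT-labelled mice, and its part was not tested either. The Col3a1 difference was 0.55 ± 0.57, and Col1a1 (0.47 ± 0.51) and Col6a3 (0.61 ± 0.68) were next in order of p. Single mice moved these values: without KO-labelled mouse 3 they were 0.0025, 0.06 and -0.20, and without WT-labelled mouse 5 they were 1.23, 1.03 and 1.17. In macrophages (4 against 3 mice), 0 of 3 members passed in edgeR, beside 0.111% of 5407 genes, with 0 by DESeq2 (0.13% of genes) and 0 at an unadjusted p under 0.05 (2.72% of genes). All 3 estimates were lower in KO-labelled mice (50.8% of genes were higher), and for 0 the groups did not overlap (5.55% of genes). Col3a1 there was 3.13, 0, 5.25 and 205 CPM in KO-labelled mice 2, 3, 6 and 7 and 38.1, 80.9 and 134 CPM in WT-labelled mice 1, 4 and 5. Without mouse 7, which alone was high, Col3a1 and Col1a2 passed as lower in KO-labelled mice (log2 -4.69 and -5.00). The share of all genes that passed in that fit is not given here. In a separate fit that kept mouse 7 and had the 2 sets of mice as a term, Col3a1 and Col1a2 were -1.46 and -1.14. They did not pass there. The summed fibroblast markers in the same macrophages were likewise low in mice 2, 3 and 6 and highest in mouse 7, with 12.4, 4.30, 9.20 and 251 CPM in the KO-labelled and 140, 238 and 173 CPM in the WT-labelled mice, and their part in the collagen values was not tested.

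The ratios between chains of the fibroblast class were compared by exact two-sided permutation over the mice, for which the smallest possible p is 0.0286. Col1a1 to Col1a2 had a geometric mean of 0.740 in the KO-labelled against 0.742 in the WT-labelled group (exact p = 0.971). Col4a1 to Col4a2 had 1.70 and 1.72 (exact p = 0.771), Col6a1 to Col6a2 had 1.54 and 1.29 (exact p = 0.171) and Col6a3 to Col6a1 had 0.869 and 0.611 (exact p = 0.371). None passed after adjustment over these 4 ratios, the lowest adjusted p being 0.686. A ratio at the smallest possible p could not pass this adjustment unless most of the others were as low. The adjusted result therefore decides nothing about a single ratio.

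Genes that make, process, bind and break down collagen were listed separately (82 genes in 9 roles). In the fibroblast class 70 of the 82 were measured, and 37 were higher and 33 lower in KO-labelled mice, with a median log2 of 0.01. In edgeR 0 passed an adjusted p of 0.05 (0% of all genes) and 0 an unadjusted p under 0.05 (1.79% of all genes). Among enzymes of prolyl and lysyl modification, 13 of 14 were measured (5 higher, 8 lower). The most abundant was Ppib, which encodes cyclophilin B, at 537 ± 134 CPM against 504 ± 111 CPM (the KO-labelled group first, here and below), and P4ha3, a prolyl 4-hydroxylase subunit, had the smallest p (log2 -0.37 ± 0.47). Among chaperone and secretion genes (4 higher, 2 lower), Serpinh1, the collagen chaperone HSP47, was 1598 ± 359 and 1476 ± 272 CPM, and Creb3l1 differed by 0.23 ± 0.12. Among propeptide-processing genes (3 higher, 2 lower), Pcolce2 was 484 ± 83.2 and 392 ± 300 CPM, and Pcolce, an enhancer of procollagen C-proteinase, differed by -0.25 ± 0.14.

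Crosslinking enzymes (2 higher, 3 lower) were led by Loxl1, at 469 ± 59.0 and 487 ± 113 CPM, and Lox had the smallest p (-0.50 ± 0.36). Fibril-binding proteins (2 higher, 5 lower) were led by Dcn, which encodes decorin, at 10643 ± 1380 and 9448 ± 2960 CPM, and Postn, which encodes periostin, differed by -0.44 ± 0.27. Basement membrane partners (5 higher, 4 lower) were led by the nidogen gene Nid1, at 736 ± 279 and 691 ± 309 CPM, and the laminin chain Lamc1 differed by 0.25 ± 0.15. Collagen receptors (2 higher, 4 lower) were led by Itgb1, at 411 ± 25.7 and 521 ± 177 CPM, and Itga1, the alpha chain of a collagen-binding integrin, differed by -0.93 ± 0.50. Breakdown genes and their inhibitors (7 higher, 2 lower) were led by Timp2, an inhibitor of matrix metalloproteinases, at 1729 ± 202 and 1610 ± 377 CPM, and Mmp3 differed by 0.67 ± 0.59. TGF-beta signalling genes (7 higher, 3 lower) were led by Tgfbr2, at 436 ± 82.8 and 469 ± 47.0 CPM, and Ctgf, which encodes a matricellular protein, differed by -0.62 ± 0.41. Over the other sets tested, 0 genes of the list passed an adjusted p of 0.05 in edgeR. At an unadjusted p under 0.05 there were 4 of 62 measured in Igfbp3 fibroblasts (3.52% of all genes). There was 1 of 66 in CD90-positive fibroblasts (2.12% of all genes) and 1 of 46 in the epithelial class (0.819%). The endothelial sets and macrophages had 0.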

How the data were processed

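Single-cell 3′ libraries of 8 mice (4 labelled KO, 4 labelled WT) were processed on mm10 with Cell Ranger 3.0.2, per the submitters' processing notes. The authors deposited whole-number UMI counts per gene and cell, with 500 to 113660 UMIs per cell, and a cell table with their cell types and a size factor, a ratio of each cell's total to the typical one, deposited per cell. The table was joined to the matrix after sorting by mouse and barcode, which matched 53080 of 53080 size factors (tolerance 1e-06). Of 52717 distinct barcodes, 356 occurred in more than 1 mouse. Doublets named by the authors were left out. The counting strand was not given in the sources used here.

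Counts were summed per type and mouse (at least 20 cells) and given as CPM. KO-labelled and WT-labelled mice were compared with edgeR 4.0.16 (TMM, filterByExpr, quasi-likelihood test, Benjamini-Hochberg over all genes, threshold 0.05) in R 4.3.3, with DESeq2 1.42.0 as an alternative, and chain ratios by exact permutation. The edgeR script was tested on simulated data. Alternatives covered normalization, filters, cells with high mitochondrial share and leaving out each mouse. Leaving out mouse 8 from levels and within-mouse differences was chosen after seeing the data. Collagens with a mean of at least 50 CPM in some type were named with values, those below it by highest type where they had at least 50 UMIs, and per tested set the 3 with the smallest p and the 3 highest. Pathway genes were named per role by highest CPM and smallest p. The members and lists were chosen with earlier results of these data known. Gene positions are from GENCODE M21 and promoters from RefSeq (GRCm38.p6).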

Additional observations from a re-analysis of the deposited data

Results flagged for a closer look

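Among 83 groups of 4 mice, 6 held 1 mouse whose gap to the nearest other exceeded Dixon's critical value, which chance gives in about 5% of groups. Fibrillar collagens in the fibroblast class were 15759 CPM in WT-labelled mouse 8, while mice 1, 4 and 5 had 23495 to 23680 CPM. Other collagens in CD90-positive fibroblasts were 4663 CPM in mouse 8, against 6709 to 6836 CPM. In macrophages of KO-labelled mouse 7, fibrillar collagens were 436 CPM and other collagens 86.1 CPM, against 9.29 to 22.3 and 7.89 to 12.9 CPM. Basement membrane collagens in the epithelial class were 17.0 CPM in WT-labelled mouse 5, against 4.11 to 4.59 CPM. Col16a1 in the fibroblast class was 149.6 CPM in WT-labelled mouse 1, against 119 to 123 CPM. Among cells left out of the comparisons, the 206 B cells that the authors named as doublets with mesenchyme had 5680 CPM of fibrillar collagens.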

How the results depend on the processing

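No paired analysis was possible because the KO-labelled and WT-labelled mice share no replicate number in the labels, which do not tie single mice to a litter either. With mice 1 to 4 against mice 5 to 8 as a term, 0 collagens passed in each of the 7 sets. The count of collagens passing an adjusted p of 0.05 stayed at 0 in 91 of 93 alternative fits. It was 1 in Igfbp3 fibroblasts without the filter on low counts (Col6a5, log2 -1.22) and 2 in macrophages without KO-labelled mouse 7 (Col1a2, log2 -5.00, and Col3a1, log2 -4.69). The shares of all genes that passed in these fits are not given here, so the counts have no background beside them. Leaving out each mouse in turn gave 0 to 2 in macrophages and 0 to 0 in the other sets. All 40 alternatives of the chain ratios kept their side of the threshold, which a ratio could not pass on its own after the adjustment. Of 424 alternative values for single collagens, 31 changed sign, in 13 of 32 results, all with a log2 difference of at most 0.61. Of 249 alternative group levels, 13 moved by more than 1 SD over mice. The cells under 50% mitochondrial UMIs gave 367, 51.7 and 121 CPM of fibrillar, basement membrane and other collagens in epithelium without a subtype. Without mouse 8 the 23 within-mouse medians kept their direction. Small cell numbers limit the MSC-named fibroblasts, myofibroblasts and endothelium most.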

Other observations

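Fibroblasts that the authors named CD90-negative Sox6-Bmp reached 20 cells in mouse 5 only (26 cells), so their values have no replicate. Intervals are exact 95% binomial (Clopper-Pearson) intervals and cover counting error only. Col4a5 was 641 CPM (493 to 818) and Col4a6 280 CPM (186 to 405) in these cells, and Col6a1 was 2953 CPM (2626 to 3309). Col3a1 was 8127 CPM (7580 to 8703). Glia numbered 42 cells over all mice and were pooled. They had 1012 CPM of Col18a1 (828 to 1225), 491 CPM of Col5a3 (366 to 646) and 357 CPM of Col16a1 (251 to 491), beside 1946 CPM of Col3a1 (1687 to 2234). Col20a1 was 106 CPM (52.9 to 190) in the same cells, Col28a1 86.7 CPM (39.7 to 165) and Col11a1 57.8 CPM (21.2 to 126).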
